A study of Pinctada fucata with 3 samples.

Results

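Among the transcripts of the pearl oyster mantle, 153 genes stood apart in the library made after Rel knockdown while differing little between the other 2 libraries. Of these, 75 were higher and 78 were lower with Rel dsRNA. They were chosen from 33072 listed genes by the levels in the deposited table, in FPKM (mapped fragments scaled to the transcript's length and to the size of the library). A gene needed a mean of at least 10 FPKM over the 3 libraries, which 6430 genes had. After 1 FPKM was added to each value, it had to be at least 2-fold above both other libraries with Rel dsRNA, or at least 2-fold below both, with IκB dsRNA and GFP dsRNA within 1.5-fold of each other. The values given for these genes are those that chose them. They describe the genes and carry no test. The mean includes the Rel dsRNA value, so a higher gene could reach 10 FPKM through the Rel dsRNA library alone.

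The mantle of Pinctada fucata was sampled 7 days after 30 μg of double-stranded RNA (dsRNA) had been injected into the adductor muscle. The dsRNA matched Rel in 1 group (Pf-Rel), IκB in another (poI-kappaB) and green fluorescent protein (GFP), a jellyfish protein that oysters lack, in the control. Every group held 5 healthy adult oysters, and all 3 had received dsRNA, so no group shows the mantle without an injection. There was 1 library per group. Whether the mantle pieces of the 5 oysters were pooled is not stated, and the spread between oysters cannot be seen, so a difference here is between libraries. The values come from whole tissue, in which fewer cells of a type and less RNA per cell cannot be told apart.

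Rel proteins are transcription factors of the NF-κB family. As background, IκB holds them in the cytoplasm, and they enter the nucleus and act on their target genes once IκB is degraded. The shell is secreted by the mantle, and NF-κB signalling is best known for immune responses. The deposited table does not pair its identifiers with gene names, so neither the function of these genes nor the Rel and IκB transcripts were analysed here, and the knockdown itself was not checked. The identifiers are of 2 kinds, which begin with pfu_aug2.0 or BGI_novel.

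A shift of Rel dsRNA alone was a rare pattern. Rel dsRNA was at least 2-fold above GFP dsRNA for 1266 of the 6430 genes (19.7%) and at least 2-fold below it for 1399 (21.8%). Against IκB dsRNA it was that far above for 465 genes (7.23%) and that far below for 398 (6.19%). At least 2-fold above both were 254 genes (3.95%), and at least 2-fold below both were 200 (3.11%). IκB and GFP dsRNA lay within 1.5-fold of each other for 2648 genes (41.2%). Both conditions together left the 75 higher genes (1.17%) and the 78 lower genes (1.21%). Thus 29.5% of the genes above both other libraries and 39% of those below both met the whole rule, and the other 179 and 122 genes had IκB and GFP dsRNA further apart.

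The same rule was turned to each of the other libraries. With IκB dsRNA as the library that stood apart, 42 genes were higher (0.653%) and 80 were lower (1.24%). With GFP dsRNA, 749 genes were higher (11.6%) and 554 were lower (8.62%). Of the 1578 genes for which any 1 library stood apart in this way, 9.7% had Rel dsRNA apart, 7.73% had IκB dsRNA apart and 82.6% had GFP dsRNA apart. The Rel dsRNA share was thus near that of IκB dsRNA and far below that of the control library. With 1 library per group, these counts were not tested against each other.

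**Figure D1:**
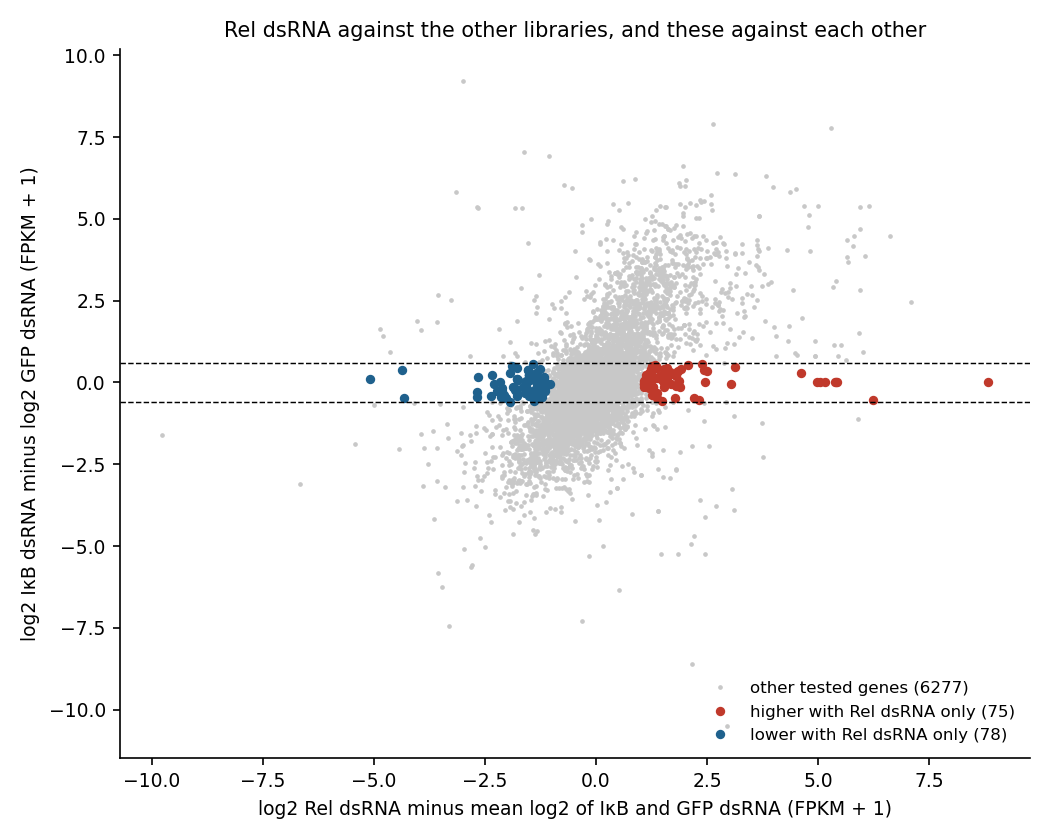
Each of the 6430 tested genes by its log2(FPKM + 1) with Rel dsRNA minus the mean of IκB and GFP dsRNA (horizontal axis) and by IκB minus GFP dsRNA (vertical axis), with dashed lines at 1.5-fold. The 75 higher genes (red) lie to the right and the 78 lower genes (blue) to the left between the lines, and the long tilted cloud of grey points holds the genes for which IκB and GFP dsRNA also differed.

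The genes higher with Rel dsRNA had a median of 43.4 FPKM in the Rel dsRNA library (18.8 to 3982), of 13.8 FPKM in the IκB dsRNA library (0 to 1130) and of 12.4 FPKM in the GFP dsRNA library (0 to 784). Their median log2 ratio on the FPKM + 1 scale was 1.59 against GFP dsRNA and 1.45 against IκB dsRNA, compared with -0.15 and -0.01 over all tested genes. Both comparisons use the same Rel dsRNA library. Without the 7 genes listed at 0 in both other libraries, the medians of the 68 that were left were 1.52 and 1.40. The log2 ratio of IκB against GFP dsRNA had a median of 0.08 among the 75 higher genes, and of -0.04 among the 2648 genes that kept within 1.5-fold.

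The higher genes ranged in size between just past the limit and far beyond it. By the smaller of its 2 fold changes, against IκB or against GFP dsRNA, a gene was between 2-fold and 2.5-fold higher in 37 cases, between 2.5-fold and 3-fold in 12, between 3-fold and 4-fold in 10, between 4-fold and 8-fold in 6, and at least 8-fold higher in 10. Just inside the limit was a gene at 92.0 FPKM with Rel dsRNA, 45.2 FPKM with IκB dsRNA and 38.04 FPKM with GFP dsRNA. Just outside was one at 18.6, 7.55 and 8.91 FPKM in the same order. Its smaller fold was 1.98 once 1 FPKM had been added to each value. The 10 genes past 8-fold comprised the 7 that were listed at 0 elsewhere and 3 with a value above 0 in every library.

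BGI_novel_G005891 had the largest smaller ratio among the 68 higher genes above 0 in all 3 libraries. It was at 169.7 FPKM with Rel dsRNA, 0.88 FPKM with IκB dsRNA and 1.72 FPKM with GFP dsRNA. This transcript was thus moderately abundant in the Rel dsRNA library and close to 0 in both others. Its log2 ratio was 5.97 against GFP dsRNA and 6.50 against IκB dsRNA (62.8-fold and 90.8-fold on the FPKM + 1 scale). IκB and GFP dsRNA were 1.45-fold apart with the pseudocount of 1, and with 0.1 FPKM in its place the gene no longer met the rule.

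The most abundant of the higher genes was pfu_aug2.0_1919.1_31963. It was at 3982 FPKM with Rel dsRNA, 1130.3 FPKM with IκB dsRNA and 784 FPKM with GFP dsRNA. All 3 libraries held this transcript at a high level, the Rel dsRNA library the highest and the GFP dsRNA library the lowest. Its log2 ratio was 2.34 against GFP dsRNA and 1.82 against IκB dsRNA (5.07-fold and 3.52-fold). IκB dsRNA was itself 1.44-fold above GFP dsRNA, near the 1.5-fold limit, and after upper-quartile scaling this gene no longer met the rule. It made up 23.4% of the summed FPKM of the 75 genes in the Rel dsRNA library.

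The 7 higher genes listed at 0 with both IκB and GFP dsRNA stood at 455, 41.8, 41.0, 40.4, 34.55, 32.2 and 30.3 FPKM with Rel dsRNA. The first was thus more than 10 times as abundant as each of the rest. Their place in the fold classes and ranks rests on the 1 FPKM added to each value, so their folds are not printed. A gene at 0 in both others reaches a mean of 10 FPKM only from 30 FPKM with Rel dsRNA. These 7 thus passed the filter through the Rel dsRNA library alone. The same pattern, at least 30 FPKM in 1 library and 0 in both others, was met by 2 genes with IκB dsRNA and by 3 genes with GFP dsRNA. FPKM values do not give the number of reads, and a listed 0 may be a transcript too rare to be counted. A rough relative depth was taken from the most frequent ratio between libraries in the low values of 2934 genes. By this measure the Rel dsRNA library, and likewise the IκB dsRNA library, had 1.17 times the depth of the GFP dsRNA library. The part of depth in these zeros was not tested.

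Of the 75 higher genes, 14 had a mean of at least 100 FPKM, and they ran between 186 and 3982 FPKM with Rel dsRNA. This mean includes the Rel dsRNA value, so a larger shift itself moves a higher gene into the more abundant class. A BGI_novel gene at 695 FPKM with Rel dsRNA, 30.2 FPKM with IκB dsRNA and 24.7 FPKM with GFP dsRNA ranked ninth by its smaller ratio. Others among the abundant ones were nearly alike in the libraries without Rel dsRNA. A pfu_aug2.0 gene at 697 FPKM with Rel dsRNA was at 128 FPKM with IκB dsRNA and 126 FPKM with GFP dsRNA, and a BGI_novel gene at 1788 FPKM with Rel dsRNA was at 608 and 620 FPKM, a gap of 2.88-fold or more on the FPKM + 1 scale. These were picked out after their values were seen.

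**Figure D2:**
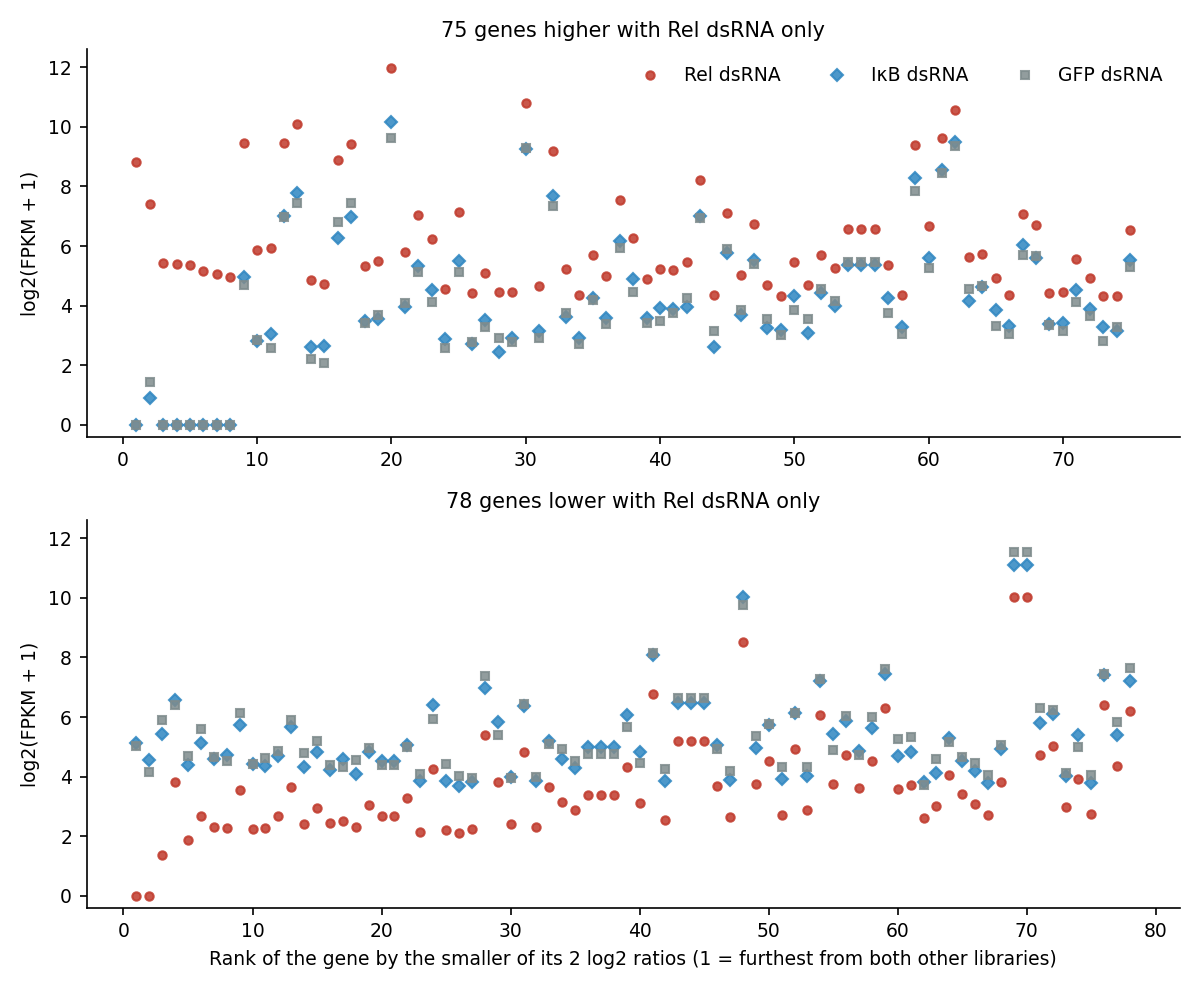
log2(FPKM + 1) of the 75 higher genes (top) and the 78 lower genes (bottom) with Rel dsRNA (red circles), IκB dsRNA (blue diamonds) and GFP dsRNA (grey squares), ordered by the smaller of the 2 log2 ratios. Blue and grey lie close together throughout because the rule asks for it, 7 higher genes have both at 0, and 2 lower genes have Rel dsRNA at 0.

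The genes lower with Rel dsRNA had a median of 9.45 FPKM in the Rel dsRNA library (0 to 1033), of 29.5 FPKM in the IκB dsRNA library (12 to 2182) and of 29.9 FPKM in the GFP dsRNA library (12.2 to 2985). Their median log2 ratio was -1.56 against GFP dsRNA and -1.52 against IκB dsRNA. The ratio of IκB against GFP dsRNA had a median of -0.16, compared with -0.04 among the 2648 genes that kept within 1.5-fold. By the smaller fold, 38 genes were between 2-fold and 2.5-fold lower, 14 between 2.5-fold and 3-fold, 14 between 3-fold and 4-fold, 9 between 4-fold and 8-fold, and 3 at least 8-fold lower. Among genes above 0 in all 3 libraries, 10 lower and 9 higher genes were at least 4-fold apart. With the genes listed at 0 included, whose ratio rests on the pseudocount, these numbers were 12 and 16. Just inside the limit was a gene at 72.3 FPKM with Rel dsRNA, 145.9 FPKM with IκB dsRNA and 198 FPKM with GFP dsRNA. Just outside was one at 10.2, 21.5 and 21.2 FPKM in the same order. Its smaller fold was 1.98 on the FPKM + 1 scale.

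Among the 76 lower genes above 0 in all 3 libraries, pfu_aug2.0_2182.1_08768 had the largest smaller ratio. It was at 1.56 FPKM with Rel dsRNA, 42.1 FPKM with IκB dsRNA and 59.3 FPKM with GFP dsRNA. It was thus close to 0 in the Rel dsRNA library and well above the 10 FPKM limit in both others. Its log2 ratio was -4.56 against GFP dsRNA and -4.07 against IκB dsRNA (23.5-fold and 16.8-fold lower on the FPKM + 1 scale). It met the rule under each of the 3 scalings tried and with a pseudocount of 0.1. A pair of pfu_aug2.0 genes was listed at 0 with Rel dsRNA. One of them was at 34.2 FPKM with IκB dsRNA and 31.7 FPKM with GFP dsRNA, and the other at 22.6 and 16.99 FPKM.

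The most abundant of the lower genes was BGI_novel_G001591. It was at 1033 FPKM with Rel dsRNA, 2182 FPKM with IκB dsRNA and 2985 FPKM with GFP dsRNA. The Rel dsRNA library was the lowest of the 3, and IκB dsRNA lay between it and the control. Its log2 ratio was -1.53 against GFP dsRNA and -1.08 against IκB dsRNA (2.89-fold and 2.11-fold lower). With all libraries brought to the same sum, its ratio against IκB dsRNA was -0.92, and it no longer met the rule. A second member, with the next ID number, is listed with the same 3 values, so these 2 entries may not be separate measurements.

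Of the 78 lower genes, 9 had a mean of at least 100 FPKM, a mean to which a low Rel dsRNA value also contributes. One of the abundant genes was at 367 FPKM with Rel dsRNA, 1040.2 FPKM with IκB dsRNA and 854 FPKM with GFP dsRNA, another at 108.8, 271.0 and 283 FPKM, and yet another at 41.1, 123.8 and 165.6 FPKM in the same order.

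By level, the genes shifted with Rel dsRNA only were spread over the whole range. Their share was 2.44% where the mean was 10 to 20 FPKM (2585 genes tested), 2.27% between 20 and 50 FPKM (2026 genes) and 2.63% between 50 and 100 FPKM (797 genes). It was 1.8% between 100 and 200 FPKM (445 genes), 2.72% between 200 and 1000 FPKM (405 genes) and 2.33% above that (172 genes). The directions were unequal at 200 to 1000 FPKM, where 9 genes were higher and 2 were lower. From 20 to 50 FPKM, 18 were higher and 28 lower. The mean includes the Rel dsRNA library itself, and no test was made of these shares. Entries with identical values were counted separately here and may not be separate measurements. The 2 lower genes above 1000 FPKM are such entries, and each class below 100 FPKM also holds some.

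**Figure D3:**
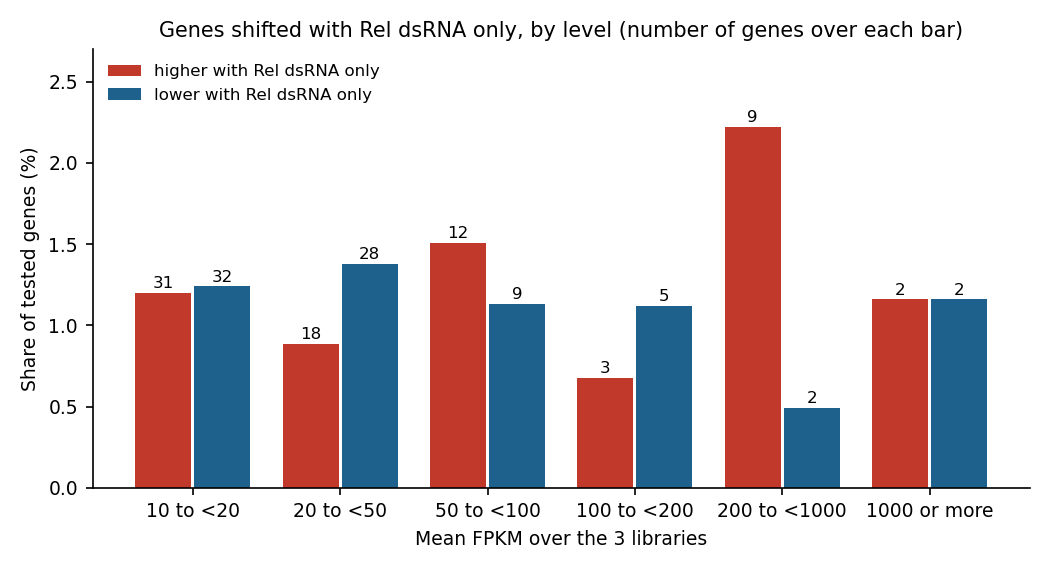
Share of the tested genes in each class of mean FPKM (percent) that was higher (red) or lower (blue) with Rel dsRNA only, with the number of genes over each bar. Each class holds genes of both directions, and the class of 200 to 1000 FPKM has 9 higher and 2 lower genes. Entries with identical values are counted separately.

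Summed over the members, the 75 higher genes held 16999 FPKM with Rel dsRNA, 5137 FPKM with IκB dsRNA and 4539 FPKM with GFP dsRNA, or 1.69%, 0.456% and 0.389% of all FPKM in those libraries. The 78 lower genes held 3626 FPKM with Rel dsRNA, 8777 FPKM with IκB dsRNA and 10493 FPKM with GFP dsRNA, or 0.36%, 0.779% and 0.899%. A few genes carried these sums. The 5 most abundant held 53.9% of the higher genes' sum and 72.4% of the lower genes' sum in the Rel dsRNA library. Among these lower genes were BGI_novel_G001591 and the entry listed with the same values, each with 28.5% of the sum. If they are not separate measurements, the lower genes' sums and shares count this one again.

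Identical values were more frequent among the lower genes. Of the 78, 10 shared all 3 values with another lower gene (12.8%), in 4 sets, against 3 of the 75 higher genes (4%), in 1 set, and 278 of all tested genes (4.32%), in 133 sets. In each of these 5 sets, the entries were BGI_novel genes whose ID numbers lay at most 3 apart. Counted once, the lower genes came to 72 and held 2498 FPKM with Rel dsRNA, 6337 FPKM with IκB dsRNA and 7237 FPKM with GFP dsRNA. These sums were 0.248%, 0.563% and 0.62% of all FPKM in those libraries. The higher genes came to 73.

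The kind of identifier, which the rule did not use, was mixed in both directions. BGI_novel genes were 48% of the higher genes (36 of 75) and 60.3% of the lower genes (47 of 78), compared with 54.5% of all tested genes (3504 of 6430). The groups of identical values account for 3 of the 36 and 10 of the 47.

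Few members had neighbouring ID numbers. What the order of the numbers stands for is not given in the sources used here. With identical values counted once, 9 of the 145 members (6.21%) had another member of the same kind within 3 ID numbers, against 175 of 6285 tested genes (2.78%). At the other windows the shares were 1.38% of members against 1.07% of tested genes within 1 ID number, and 12.4% against 8.4% within 10. Of the 9 members within 3 ID numbers of another, 6 had a neighbour of the same direction and 4 one of the opposite direction. In a run of 3 BGI_novel genes within 6 numbers, the first was at 3.79 FPKM with Rel dsRNA, 20.5 FPKM with IκB dsRNA and 20.2 FPKM with GFP dsRNA. The second was at 40.4 FPKM with Rel dsRNA and at 0 in both others, and the third was the gene at 695 FPKM with Rel dsRNA described above. The first was thus lower and the others higher with Rel dsRNA. Another pair, 2 numbers apart, was also split. One of these genes was at 18.3 FPKM with Rel dsRNA, 84.5 FPKM with IκB dsRNA and 59.4 FPKM with GFP dsRNA, and the other at 138 FPKM with Rel dsRNA, 53.8 FPKM with IκB dsRNA and 59.4 FPKM with GFP dsRNA. If neighbours are near-identical copies, the counting could split reads between them, so values of such pairs are uncertain, and this was not tested.

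The balance of the directions depended on how the libraries were scaled and on the filter on the mean FPKM. As deposited, 49% of the 153 genes were higher. With the libraries brought to the same sum, as the TPM unit does, 111 genes were higher and 56 lower (66.5% higher). With median-ratio scaling 58 were higher and 91 lower (38.9%), and with upper-quartile scaling 64 and 92 (41%). Bringing the sums together raised the median log2 ratio over the 6430 genes, by 0.20 against GFP dsRNA and by 0.15 against IκB dsRNA. Under all 3 scalings together, 56 of the 75 higher and 51 of the 78 lower genes still met the rule. With a pseudocount of 0.1 as well, 54 and 50 genes did, with a median smaller fold of 2.83 and 2.98. Of the 21 higher and 28 lower genes that did not, 4 and 2 had been at 2.5-fold or more.

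**Figure D4:**
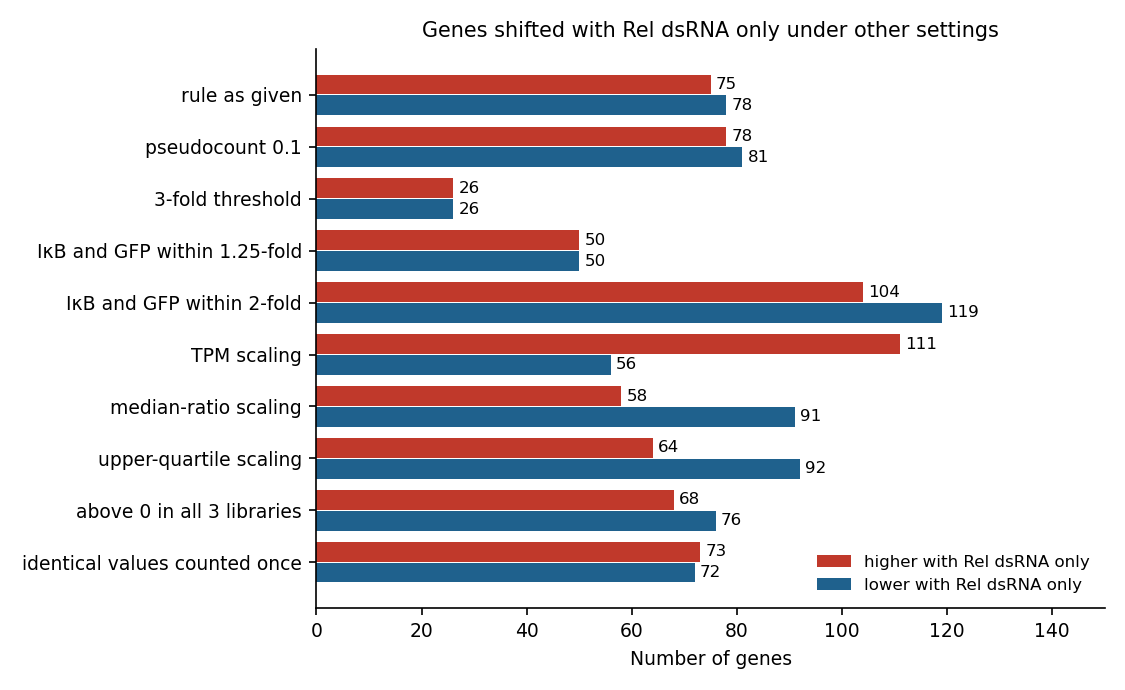
Number of genes higher (red) and lower (blue) with Rel dsRNA only, for the rule as given and for other settings of the pseudocount, the fold limit, the limit between IκB and GFP dsRNA, the scaling and the genes counted. The rule gives 75 and 78 genes, TPM scaling 111 and 56, and median-ratio scaling 58 and 91. Other filters on the mean FPKM are not shown.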

How the data were processed

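The authors deposited 1 table of FPKM values, rounded to 2 decimals, for 33072 genes and 3 libraries, whose 3 columns carry the names of the treatments. HISAT, Bowtie2 and RSEM are the tools listed in the submitters' processing notes. Versions, roles, build and gene models are not given in the sources used. Per the labels' protocols, mRNA was enriched by poly(A) or ribosomal RNA was depleted, without saying which. The values are not counts, and with 1 library per group no test was made and no p-value computed. The number of reads is unknown. Relative depth was taken from the most frequent ratio between low values. The rule was applied in Python 3.11.15 with pandas 2.3.3. Its code was checked on simulated libraries with planted changes, which does not show how reliable the members are. The members and all choices were made with earlier results of these data known. In each direction 2 genes were named by rule: the one above 0 in all libraries with the largest smaller ratio, and the one with the highest mean. Gene lists planned for shell matrix proteins, NF-κB signalling, immunity and cell types could not be applied, as the identifiers carry no names. Alternatives were other pseudocounts, filters, limits and scalings, genes above 0 in all libraries, identical values counted once, and other windows of ID numbers.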

Additional observations from a re-analysis of the deposited data

How the results depend on the processing

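No replicate could be left out, and no paired analysis was possible because there is 1 library per group. Of the counts of genes, 44 stayed within 1.5 times of the value reported and 30 did not. Counts are given as higher and lower, first with Rel dsRNA apart, then with IκB dsRNA and with GFP dsRNA apart. With no filter on low values they were 792 and 387, 714 and 432, and 2139 and 1895. With a mean of at least 1 FPKM they were 466 and 361, 398 and 403, and 1793 and 1814. With a mean of at least 50 FPKM, which leaves fewer genes, they were 26 and 18, 15 and 11, and 245 and 176. The filter changes the number of genes tested. With Rel dsRNA apart, 2.39% and 1.17% of 33072 genes were higher and lower with no filter. The shares were 2.25% and 1.74% of 20728 genes at 1 FPKM, and 1.43% and 0.99% of 1819 genes at 50 FPKM. Under the rule as given they were 1.17% and 1.21% of 6430 genes. With a 3-fold limit the counts were 26 and 26, 17 and 24, and 354 and 369. With a tighter limit on the gap between the other libraries, the lower genes numbered 50, 46 and 357 for Rel, IκB and GFP dsRNA, and with a limit of 2-fold those of Rel dsRNA numbered 119. A pseudocount of 0.1, the scalings, leaving out genes with a 0, and counting identical values once moved no count past 1.5 times. Members with another member close by numbered 2 within 1 ID number (1.38%, against 1.07% of tested genes) and 18 within 10 (12.4%, against 8.4%). No log2 ratio of the 4 named genes changed sign under the pseudocount of 0.1 or the 3 scalings. The pseudocount of 0.1 moved 3 of them by over 1.5-fold: 7.44 for BGI_novel_G005891 against IκB dsRNA, and -5.16 and -4.67 for pfu_aug2.0_2182.1_08768 against GFP and IκB dsRNA. Depth in reads is unknown, so what it limits could not be given in numbers.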
